A study of Mus musculus with 12 samples.

Results

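Il6, Il10 and Il1b, the genes of the cytokines interleukin-6, interleukin-10 and interleukin-1 beta, were followed in RNA-seq libraries of mouse marginal zone B cells. They were chosen by symbol, as 3 of the 24346 gene symbols in the deposited files, and each had a value in all 12 libraries. The cells were wild type or Trpm5-/-, and were cultured unstimulated, with lipopolysaccharide (LPS, at 10 µg/mL) or with anti-IgM antibody (also 10 µg/mL), in each case for 4 h. This gives 6 groups of 2 libraries. The labels give no mouse strain or age, and no allele beyond Trpm5-/-. Nor do they tell separate mice or cultures from repeat preparations within a group, so a p-value measures only how far these libraries scatter, possibly for technical reasons alone. TRPM5 is a calcium-activated cation channel, and the title of the study places it in the calcium signal that LPS evokes in B cells.

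Marginal zone B cells sit at the border of the spleen's blood sinus and answer blood-borne microbes quickly. LPS, a bacterial cell wall lipid, signals through Toll-like receptor 4 and NF-kappa-B, while anti-IgM cross-links the B cell antigen receptor. Interleukin-6 is a secreted cytokine that drives plasma cell and T cell responses through its receptor and the shared chain gp130. Interleukin-10 is an anti-inflammatory cytokine made by B cells with regulatory activity, and interleukin-1 beta is made as a precursor that caspase-1 cuts before it acts on its receptor. Their mRNAs are known to be short-lived, in part through AU-rich elements in the 3′ untranslated region (UTR) that decay factors such as tristetraprolin (Zfp36) bind.

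On mm10, with GENCODE M21 gene models, Il6 lay on the plus strand of chromosome 5 at chr5:30013114-30019981 and its principal transcript had 5 exons. Il10 lay on the plus strand at chr1:131019845-131024974, also with 5 exons, and Il1b on the minus strand at chr2:129364570-129371139 with 7 exons. The 250 bases before the transcription start of Il6 and Il1b were read from the RefSeq promoter table (GRCm38.p6), in which 2 of the 3 genes matched by symbol. They are printed because genes of factors that bind such motifs are on the list of transcription regulators counted below. Most of those genes are not described singly. The Il6 sequence covers chr5:30012864-30013113 on the plus strand and the Il1b sequence chr2:129371140-129371389 on the minus strand. Capitals mark matches to the motifs searched.

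Il6: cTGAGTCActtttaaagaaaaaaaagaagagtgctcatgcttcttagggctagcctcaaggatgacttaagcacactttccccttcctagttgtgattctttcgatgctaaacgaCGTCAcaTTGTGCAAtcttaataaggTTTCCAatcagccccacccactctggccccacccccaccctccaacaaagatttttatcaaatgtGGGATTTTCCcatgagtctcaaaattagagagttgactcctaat

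Il1b: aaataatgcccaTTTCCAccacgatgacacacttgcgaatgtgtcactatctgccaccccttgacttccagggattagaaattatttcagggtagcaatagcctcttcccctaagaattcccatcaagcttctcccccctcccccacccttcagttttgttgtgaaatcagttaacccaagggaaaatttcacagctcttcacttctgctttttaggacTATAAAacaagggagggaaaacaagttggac

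Motifs were searched on both strands, and no matches overlapped. In the Il6 window there was 1 match each for AP-1 (TGANTCA, at -249 to -243 from the start), CREB (TGACG, reverse strand, -135 to -131), C/EBP (TTGCNNAA, reverse strand, -128 to -121), NFAT (TGGAAA, reverse strand, -109 to -104) and the kappa-B motif (-44 to -35, read as GGGATTTTCC). The Il1b window held 1 NFAT match on the reverse strand (-238 to -233) and 1 TATA box match (TATAAA, -31 to -26). No match to the STAT motif TTCNNNGAA was in either window. Of 32851 promoter windows in the table, the kappa-B motif matched 7.3%, C/EBP 9.6%, CREB 17.8%, AP-1 6.7%, NFAT 18.6%, STAT 7.0% and TATA 12.4%. These matches describe letters in the windows and not bound sites.

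The 3′ UTRs were searched for ATTTA, the core of AU-rich elements. The Il6 UTR of 427 bases held 6 copies, the Il10 UTR of 706 bases held 6 and the Il1b UTR of 459 bases held 4, against a median of 1 over 9610 tested genes. Among tested genes with a UTR within 25% of the same length, 0.36% of 1107 had as many copies as Il6, 1.6% of 1439 as many as Il10 and 2.45% of 1186 as many as Il1b. The first stretch of 30 bases with the most copies in each UTR is shown with ATTTA in capitals. It starts at base 129 of the Il6 UTR, 104 of the Il10 UTR and 192 of the Il1b UTR.

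Il6: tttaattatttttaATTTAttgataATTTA
Il10: cctcgtttgtacctctctccgaaatATTTA
Il1b: caaccacttacctATTTATTTAtgtATTTA

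The values are FPKM (fragments per kilobase of transcript scaled to the mapped total), which can be compared between genes. Their sum per library was 563461 to 805373, highest in the 4 LPS libraries (749063 to 805373), and 12737 to 13483 symbols were above 0. Depth, read from the size of 1 fragment in FPKM, ran from 0.645 to 1.06 times that of wild-type unstimulated replicate 1. Trpm5 itself was barely detected: wild-type libraries had 0.0196 and 0.210 FPKM unstimulated, 0.434 and 0.321 with LPS and 0.0590 and 0.0241 with anti-IgM, and Trpm5-/- libraries had 0 to 0.0303 FPKM. The genotypes overlapped in unstimulated cells and did not overlap under LPS or anti-IgM. With anti-IgM this rests on values close to 0, with 0 in both Trpm5-/- libraries. There 51.7% of all tested genes did not overlap in either direction. Pan-B markers summed to 1855 to 5832 FPKM and marginal zone markers to 587 to 1492. Follicular B cell genes summed to 261 to 1465 and plasma cell genes to 155 to 332. T cell markers summed to at most 7.31 FPKM and NK cell markers to at most 3.36.

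Since macrophages, neutrophils and dendritic cells make the same cytokines, their markers were read in each group. The 13 macrophage and monocyte markers, of which 5 passed the filter, summed to 32.0 and 38.2 FPKM in wild-type unstimulated libraries, 18.6 to 23.1 with LPS and 18.97 to 21.1 with anti-IgM. In Trpm5-/- libraries the sums were 24.3 to 27.2, 23.3 to 23.9 and 22.7 to 23.7 FPKM in the same order. The sum was lower in the LPS libraries than in the unstimulated ones of each genotype, and under LPS and anti-IgM it was higher in Trpm5-/- than in wild-type libraries without overlap. Lyz2 was called higher in Trpm5-/- under LPS (0.88 ± 0.17, adjusted p = 0.0181) and anti-IgM (0.92 ± 0.17, adjusted p = 0.0138), and Vcam1 lower without stimulus (-0.96 ± 0.24, adjusted p = 0.0475). Each was the only 1 of the 5 called there. Of all tested genes 3.59% were called between genotypes with LPS, 3.83% with anti-IgM and 6.11% without stimulus. Lyz2 (5.22 to 13.5 FPKM) and Cd68 (6.60 to 11.9) carried most of the sum, Csf1r stayed at or under 0.824 and Cd14 at or under 0.963, and Fcgr1 was at 0 in all 12. The 10 neutrophil markers in the files summed to 1.88 to 5.66 FPKM, with Elane at 0 in all 12 libraries and S100a8 at 0 in 10. The 10 dendritic cell markers summed to 45.2 to 139 FPKM, and of 4 tested 3 rose with each stimulus in both genotypes: Zbtb46 and Bst2 with both, Flt3 with LPS and Ccr9 with anti-IgM. In wild type 35% of all tested genes rose with LPS and 27.7% with anti-IgM. Zbtb46 had 65.1 and 70.2 FPKM in wild-type LPS libraries against 6.78 and 7.27 unstimulated. The sum under LPS was 125 to 127 FPKM in wild-type and 130.1 to 139 in Trpm5-/- libraries. Itgax stayed at or under 0.802 FPKM and Clec9a was at 0 in 11 libraries. The part of these markers in the interleukin results was not tested.

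Il6 was almost silent without stimulus and high with LPS. Wild-type libraries had 0.837 and 0.995 FPKM unstimulated (9 and 10 fragments), 53.3 and 55.2 with LPS (388 and 398 fragments) and 0.420 and 0.343 with anti-IgM (3 fragments each). The Trpm5-/- libraries had 2.02 and 2.28 FPKM unstimulated (18 and 26 fragments), 94.7 and 83.0 with LPS (846 and 576) and 0.376 and 1.18 with anti-IgM (3 and 12). LPS libraries stood far above all others in both genotypes, and unstimulated Trpm5-/- libraries stood above unstimulated wild-type ones. The anti-IgM groups of the genotypes overlapped, and Trpm5-/- anti-IgM also overlapped wild-type unstimulated. Exact Poisson intervals (95%) ran from 0.62 to 8.77 for 3 fragments and from 6.20 to 20.96 for 12, so the anti-IgM levels rest on few fragments. These intervals cover counting error only.

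Il10 was present in all groups over a narrower range. Wild-type libraries had 8.11 and 7.73 FPKM unstimulated (109 and 97 fragments), 19.7 and 16.9 with LPS (179 and 152) and 6.50 and 7.06 with anti-IgM (58 and 77). The Trpm5-/- libraries had 9.53 and 9.26 FPKM unstimulated (106 and 132 fragments), 37.4 and 26.4 with LPS (417 and 229) and 9.13 and 7.33 with anti-IgM (91 and 93). Both LPS groups were above all other groups, and within LPS the Trpm5-/- libraries were above the wild-type ones. Among the 4 groups without LPS, Trpm5-/- anti-IgM overlapped wild-type unstimulated and the other neighbours in level did not overlap.

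Il1b was lowest with anti-IgM and highest with LPS. Wild-type libraries had 6.64 and 6.10 FPKM unstimulated (91 and 78 fragments), 88.1 and 94.7 with LPS (817 and 869) and 1.21 and 0.719 with anti-IgM (11 and 8). The Trpm5-/- libraries had 6.0 and 6.75 FPKM unstimulated (68 and 98 fragments), 128 and 115 with LPS (1458 and 1020) and 0.492 and 1.01 with anti-IgM (5 and 13). The unstimulated groups overlapped, as did the anti-IgM groups, while Trpm5-/- LPS libraries were above wild-type LPS libraries. Levels therefore ordered as anti-IgM, unstimulated and LPS in both genotypes, with no overlap between these conditions.

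**Figure D1:**
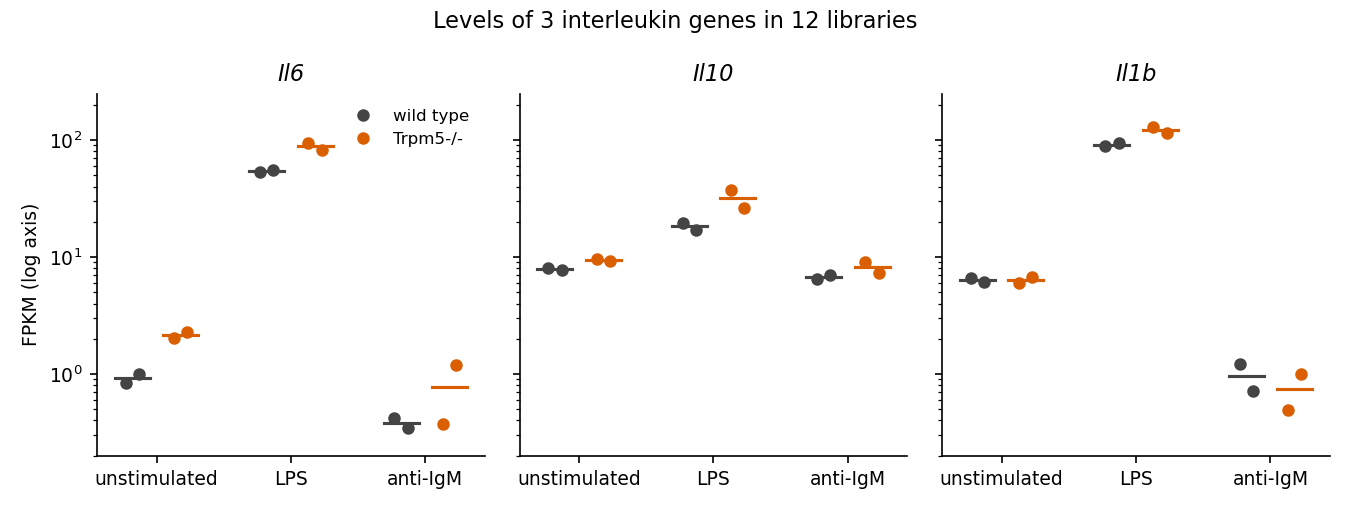
FPKM of Il6, Il10 and Il1b on a log axis in unstimulated, LPS and anti-IgM cells. Points are single libraries, 2 per group, and bars are group means, with wild type in grey and Trpm5-/- in orange. LPS libraries are the highest for all 3 genes, and anti-IgM libraries are the lowest for Il1b.

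The order of the 3 genes changed with the stimulus. In wild-type unstimulated cells Il10 (7.92 ± 0.270 FPKM, SD, n = 2) and Il1b (6.37 ± 0.386) were several times above Il6 (0.916 ± 0.112). With LPS, Il1b (91.4 ± 4.63 FPKM) was highest, then Il6 (54.2 ± 1.36) and Il10 (18.3 ± 1.98). With anti-IgM, Il10 (6.78 ± 0.391 FPKM) was highest, above Il1b (0.965 ± 0.347) and Il6 (0.382 ± 0.0543). The Trpm5-/- means had the same order with LPS, at 122 ± 9.03 FPKM for Il1b, 88.8 ± 8.29 for Il6 and 31.9 ± 7.75 for Il10. Il6 and Il1b overlapped in Trpm5-/- anti-IgM cells, at 0.779 ± 0.570 and 0.749 ± 0.363 FPKM. In wild-type LPS libraries Il1b lay above 88.3% and 88.8% of the symbols detected and Il6 above 82.1% and 82.2%. Il10 lay above 65.7% and 62.3% there, and above 48.9% and 47.6% unstimulated.

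The first comparison asks how LPS moved these transcripts in each genotype. All 3 rose in both. In wild-type cells the means rose 59.2-fold for Il6, 14.3-fold for Il1b and 2.31-fold for Il10, and in Trpm5-/- cells 41.3-fold, 19.1-fold and 3.39-fold. On the log2(FPKM + 1) scale used for testing, which understates changes of low genes, the wild-type differences were 4.85 ± 0.19 (SE, adjusted p = 6.77e-09) for Il6, 3.65 ± 0.16 (1.54e-08) for Il1b and 1.11 ± 0.16 (0.000118) for Il10. The Trpm5-/- differences were 4.83 ± 0.19 (adjusted p = 7.66e-09), 4.06 ± 0.16 (7.89e-09) and 1.64 ± 0.16 (5.98e-06). Adjusted p-values are Benjamini-Hochberg values over 10797 genes from limma, and a gene is called under 0.05. Among these genes Il6 had the 10th largest rise in both genotypes and Il1b the 25th in wild type and 22nd in Trpm5-/-, while Il10 ranked 1228th and 452nd. A call alone sets none of them apart, since 35% of all tested genes rose in wild type and 34.8% in Trpm5-/-. In bulk RNA, more transcript per cell and a change in the share of expressing cells cannot be told apart.

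Cross-linking of the antigen receptor gave another picture, with the same unstimulated libraries as controls. Il1b fell in both genotypes, to 0.151 of its unstimulated mean in wild type and 0.118 in Trpm5-/-. The log2 differences were -1.92 ± 0.16 (adjusted p = 5.10e-06) and -2.09 ± 0.16 (2.93e-06), the 110th and 93rd largest falls. Il6 fell in Trpm5-/- cells (-0.86 ± 0.19, adjusted p = 0.00395). In wild type its difference was -0.47 ± 0.19 (adjusted p = 0.0675) and was not called, though the libraries did not overlap. Il10 was not called in either genotype, at -0.20 ± 0.16 (95% interval -0.56 to 0.16, adjusted p = 0.337) and -0.18 ± 0.16 (-0.53 to 0.18, adjusted p = 0.385). Of all tested genes 20.9% fell in wild type and 23% in Trpm5-/-, and in 34.8% and 37.4% the anti-IgM libraries lay below the unstimulated ones without overlap. With a pseudocount of 0.1 in place of 1, the differences were -1.08 (adjusted p = 0.0320, called) in wild type and -1.52 in Trpm5-/- for Il6, and -2.64 and -3.00 for Il1b. In Trpm5-/- cells Il6 kept its call at -0.53 (adjusted p = 0.0219) without anti-IgM replicate 1 and at -1.19 (adjusted p = 0.000314) without replicate 2.

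Set directly against each other, LPS and anti-IgM differed for all 3 genes. LPS means were above anti-IgM means 142-fold for Il6, 94.7-fold for Il1b and 2.70-fold for Il10 in wild type, with adjusted p of 1.38e-08, 3.94e-09 and 7.16e-05. In Trpm5-/- the ratios were 114-fold, 163-fold and 3.87-fold, with adjusted p of 8.52e-09, 1.77e-09 and 6.82e-06. For Il1b this was the 7th largest such difference of all tested genes in wild type and the 3rd in Trpm5-/-. Higher levels with LPS were called for 27.7% of tested genes in wild type and 28.3% in Trpm5-/-.

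The question of the study, what loss of Trpm5 does, was read within each condition. Under LPS the means of all 3 genes were higher in Trpm5-/- cells, 1.74-fold for Il10, 1.64-fold for Il6 and 1.33-fold for Il1b, and for none did the libraries overlap. The log2 difference was 0.75 ± 0.16 for Il10 (95% interval 0.40 to 1.11, adjusted p = 0.0303), the only one of the 3 called. It was 0.70 ± 0.19 for Il6 (0.27 to 1.13, adjusted p = 0.0864) and 0.41 ± 0.16 for Il1b (0.05 to 0.77, adjusted p = 0.232). Of all tested genes 3.59% were called and 26.5% were higher in Trpm5-/- without overlap, so the lack of overlap is common. The Il10 call rests on the libraries and settings used. It was lost without Trpm5-/- LPS replicate 1 (0.51, adjusted p = 0.162), without wild-type LPS replicate 1 (0.86, 0.0802) or replicate 2 (0.65, 0.180), without the filter on low values (0.0646), with quantile normalization (0.0517) and with the 4 LPS libraries alone (0.0841). With those 4 libraries alone Il6 was called (0.70, adjusted p = 0.0117). Trpm5-/- LPS replicate 1, which had the higher value of its group for all 3 genes, also had the largest FPKM sum of the 12 libraries. Markers of B cell subsets differed between genotypes in all 3 conditions. Unstimulated, the marginal zone sum was 1475 to 1492 FPKM in Trpm5-/- against 1159 to 1186 in wild-type libraries. The follicular sum there was 857 to 886 against 1127 to 1136. With anti-IgM the marginal zone sum was 1044 to 1077 against 836 to 844 and the follicular sum 261 to 278 against 366 to 387. Under LPS the marginal zone sum was 812 to 852 FPKM in Trpm5-/- against 587 to 609 in wild-type libraries (4 of 11 higher, 0 lower), and the follicular sum 1032 to 1034 against 1463 to 1465 (0 of 6 higher, 4 lower). The pan-B sum was 2898 to 2959 FPKM against 3500 to 3570 (0 of 9 higher, 4 lower) and the plasma cell sum 329 to 332 against 280 to 301 (1 of 5 higher). The macrophage and dendritic cell sums given above were also higher in Trpm5-/- under LPS. The part of the FPKM sum and of these markers in the interleukin differences was not tested.

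Without stimulus the genotypes differed most for Il6. Its Trpm5-/- mean of 2.15 ± 0.182 FPKM was 2.35-fold the wild-type mean, a log2 difference of 0.72 ± 0.19 (95% interval 0.29 to 1.15, adjusted p = 0.0584) that was not called. A pseudocount of 0.1 gave 1.15 (adjusted p = 0.105). The fragments behind it were 18 and 26 against 9 and 10. Poisson intervals were 10.67 to 28.45 for 18 and 16.98 to 38.10 for 26 in Trpm5-/- libraries. In wild-type libraries they were 4.12 to 17.08 for 9 and 4.80 to 18.39 for 10. Il10 differed by 0.22 ± 0.16 (-0.14 to 0.58, adjusted p = 0.494) with libraries that did not overlap, and Il1b by less than 0.01 in size, with an interval of -0.36 to 0.36. Of all tested genes 6.11% were called here and 28.1% were higher in Trpm5-/- without overlap. By limma 0 of the 3 genes were called, and 1, Il6, had an unadjusted p under 0.05 (0.00398).

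With anti-IgM no difference between genotypes was called for these genes, and none had an unadjusted p under 0.05. Il6 differed by 0.33 ± 0.19 (-0.10 to 0.76, adjusted p = 0.396), and by -0.01 without Trpm5-/- anti-IgM replicate 2. Il10 differed by 0.24 ± 0.16 (-0.12 to 0.60, adjusted p = 0.455), with libraries that did not overlap, and Il1b by -0.17 ± 0.16 (-0.53 to 0.19, adjusted p = 0.613). Of all tested genes 3.83% were called and 51.7% did not overlap in either direction.

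Whether the response itself differed between genotypes was tested as an interaction. For LPS the Trpm5-/- response minus the wild-type response was 0.53 ± 0.23 for Il10 (0.03 to 1.04, unadjusted p = 0.0403, adjusted p = 0.461), and 0.29 (unadjusted p = 0.179) without Trpm5-/- LPS replicate 1. It was 0.41 ± 0.23 for Il1b (adjusted p = 0.577) and -0.02 ± 0.27 for Il6 (-0.63 to 0.59, adjusted p = 0.992). For anti-IgM it was -0.39 ± 0.27 for Il6 (adjusted p = 0.757; leaving out 1 Trpm5-/- anti-IgM library gave -0.058 for replicate 1 and -0.72 for replicate 2), 0.02 ± 0.23 for Il10 (0.993) and -0.17 ± 0.23 for Il1b (0.887). None of these 6 was called by limma, and 1 had an unadjusted p under 0.05. Of all tested genes 0.102% were called for LPS and 0.0278% for anti-IgM. The Il6 value for LPS depends on the pseudocount, since the unstimulated levels differ near 1 FPKM, and was -0.44 with 0.1.

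**Figure D2:**
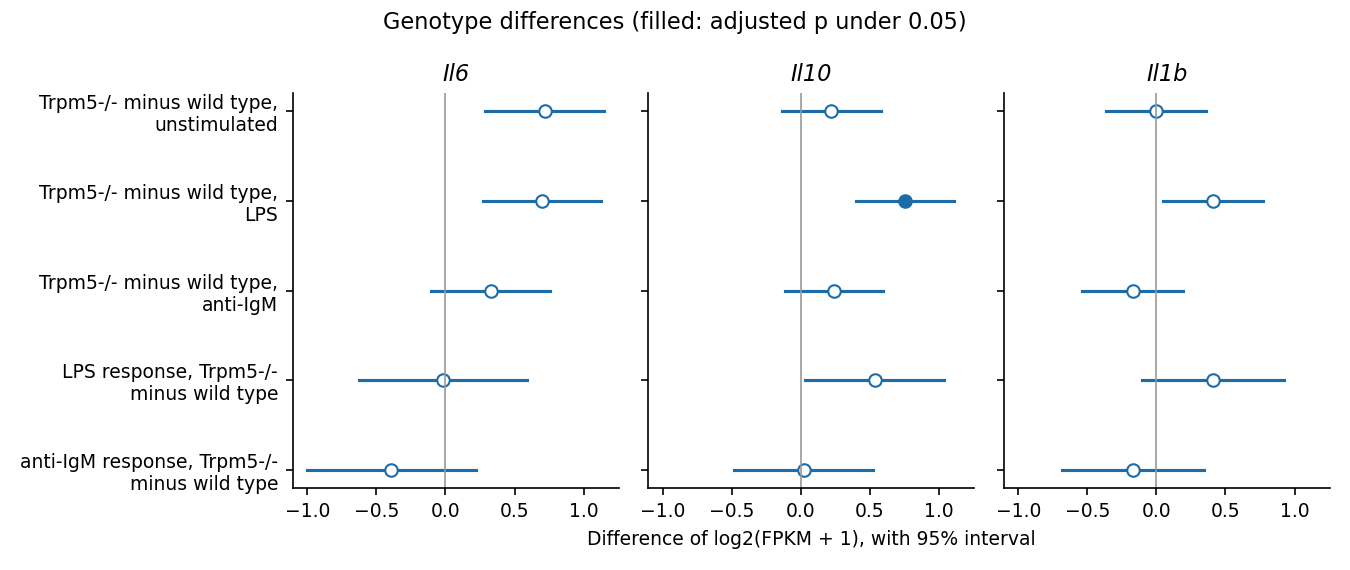
Genotype differences of Il6, Il10 and Il1b in each condition and of their responses, as differences of log2(FPKM + 1) with 95% intervals. Filled points are called at an adjusted p under 0.05. The 1 filled point is Il10 under LPS (0.75). The intervals of Il6 unstimulated and of Il6 and Il1b under LPS also lie above 0, as does that of the Il10 response to LPS (0.03 to 1.04).

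The 3 genes were set beside the interleukin genes as a family. Of 41 listed, 38 were in the files and 12, with these 3 included, passed the filter. In wild-type cells LPS raised 5 of the 12 and lowered 2, with a median log2 difference of 0.47 against -0.02 over all tested genes. Il6, Il10 and Il1b were themselves among the 5, beside Ebi3 and Il1a. In the same cells 0 of the 12 rose and 4, with Il1b among them, fell with anti-IgM (median -0.45 against 0.02). These counts and medians thus draw in part on the 3 genes' own values and do not describe the rest of the family. Over all tested genes LPS raised 35% and lowered 34.4%, and anti-IgM raised 27.7% and lowered 20.9%. Ebi3, a subunit shared by interleukin-27 and interleukin-35, had 131 and 119 FPKM in wild-type LPS libraries and 125 in both Trpm5-/- ones, against 8.20 to 9.81 unstimulated. Its rise was 3.64 ± 0.18 in wild type (adjusted p = 3.12e-08) and 3.68 ± 0.18 in Trpm5-/- (3.00e-08), with the LPS groups overlapping between genotypes. Il1a, the sister cytokine of Il1b, was named after its values were seen: it had 16.3 and 10.6 FPKM in wild-type and 23.2 and 21.3 in Trpm5-/- LPS libraries, and rose by 2.34 ± 0.33 (adjusted p = 0.000106) and 3.65 ± 0.33 (3.52e-06). Neither the genotype difference of Il1a under LPS nor the difference between its 2 rises was called.

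Others of the family fell with both stimuli or with anti-IgM. Il16, a chemoattractant cytokine expressed by resting lymphocytes, went from 106 and 112 FPKM in wild-type unstimulated libraries to 45.9 and 48.3 with LPS (-1.20 ± 0.09, adjusted p = 5.69e-07) and 29.7 and 31.8 with anti-IgM (-1.79 ± 0.09, adjusted p = 1.26e-07). Trpm5-/- cells had less of it with LPS (35.0 and 37.0 FPKM, -0.38 ± 0.09, adjusted p = 0.0424) and anti-IgM (24.3 and 20.2, -0.45 ± 0.09, adjusted p = 0.0184) than wild-type cells. Clcf1, a cytokine of the interleukin-6 family, had 8.78 and 8.74 FPKM with anti-IgM against 26.6 and 25.9 unstimulated in wild type (-1.48 ± 0.13, adjusted p = 8.36e-06). Unstimulated Trpm5-/- cells had 18.0 and 17.5 (-0.54 ± 0.13, adjusted p = 0.0446). Il12a, the p35 subunit of interleukin-12, had 13.5 and 12.4 FPKM with anti-IgM against 27.9 and 34.2 (-1.20 ± 0.14, adjusted p = 4.61e-05). The genotype calls of Il16 and Clcf1 were each lost with at least 1 library left out.

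**Figure D3:**
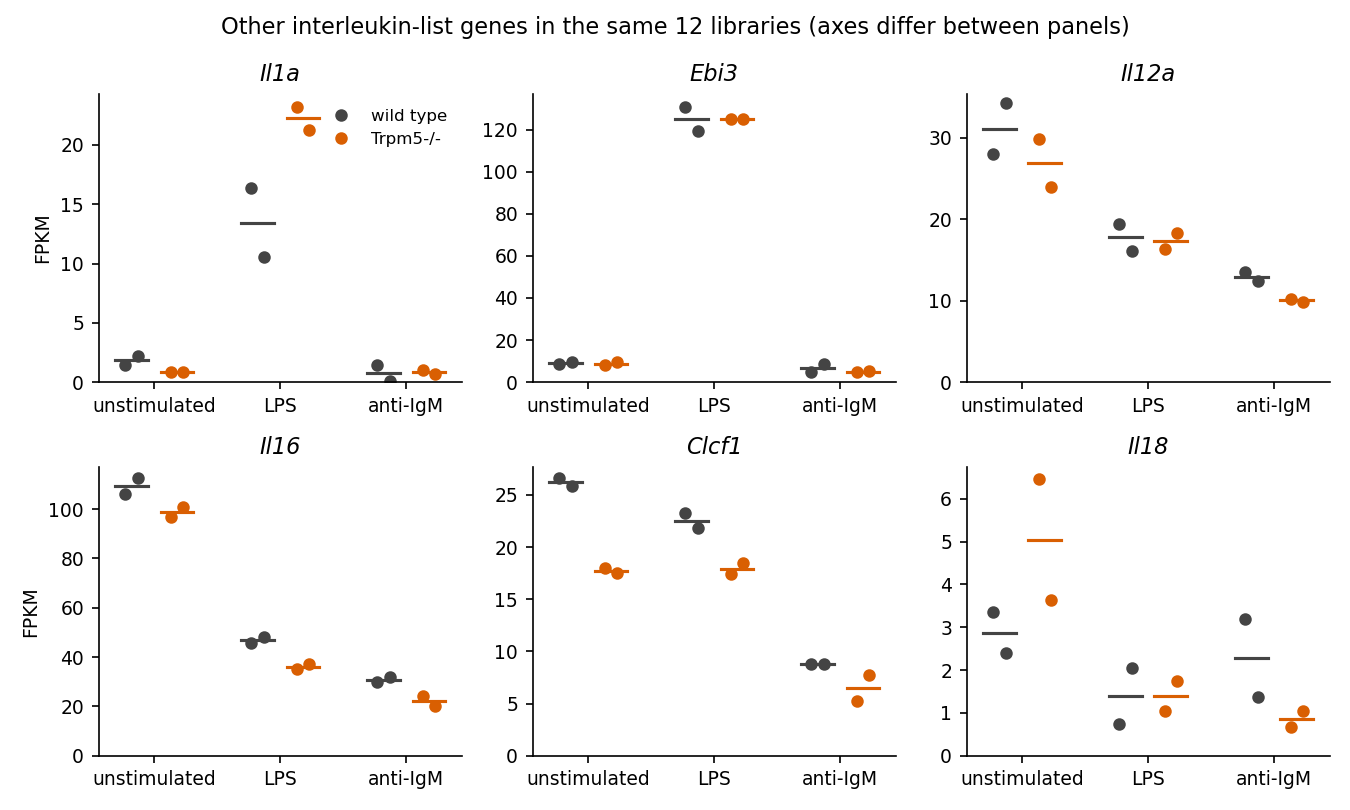
FPKM of 6 other genes of the interleukin list by condition, with points for libraries, bars for group means, wild type in grey and Trpm5-/- in orange; axes start at 0 and differ between panels. Il1a and Il18 were added after their values were seen. Il1a and Ebi3 are highest with LPS, and Il16 is highest in unstimulated cells.

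The receptor and signalling genes of each cytokine followed their own patterns. Of 13 tested genes of interleukin-6 signalling, 3 rose and 7 fell with LPS in wild type, beside 35% and 34.4% of all tested genes. The number that rose was 1 to 3 over the alternatives, with 1 when wild-type unstimulated replicate 1 was left out. Stat3, the transcription factor downstream of interleukin-6 and interleukin-10, rose by 0.93 ± 0.06 (adjusted p = 2.27e-07), from 75.1 and 83.1 to 152 and 151 FPKM. Il6st, which encodes gp130, fell by 1.53 ± 0.16 on the log2 scale (adjusted p = 9.20e-06), from 11.3 and 15.6 to 4.30 and 3.63 FPKM. In unstimulated Trpm5-/- cells Il6st was higher, at 22.8 in both libraries (0.73 ± 0.16, adjusted p = 0.0257), the only call of this list between genotypes without stimulus. Jak1, a kinase of both receptors, was lower in Trpm5-/- under LPS (-0.22 ± 0.05, adjusted p = 0.0450). With anti-IgM 3 of the 13 rose and 6 fell in wild type (27.7% and 20.9% of all tested genes), among them Jak1 (-0.72 ± 0.05) and Jak2 (-0.88 ± 0.09).

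Of 9 tested genes of interleukin-10 signalling, which share Stat3, Jak1 and others with the list above, 5 rose and 4 fell with LPS in wild type, where 69.4% of all tested genes were called. Il10ra, the ligand-binding receptor chain, moved against Il10: from 44.3 and 46.0 FPKM to 15.1 and 13.5 with LPS (-1.60 ± 0.11, adjusted p = 5.33e-07). With anti-IgM it was at 5.70 and 5.30 FPKM (-2.83 ± 0.11, adjusted p = 6.44e-08). Hmox1, heme oxygenase, which interleukin-10 can induce, was higher in Trpm5-/- cells in every condition, by 0.88 ± 0.11 unstimulated (adjusted p = 0.00198), 0.93 ± 0.11 with LPS (0.00123) and 0.88 ± 0.11 with anti-IgM (0.00169). Under LPS it had 268 and 279 FPKM against 125 and 164.

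Of 17 tested genes that process, receive or transmit interleukin-1, 7 rose and 9 fell with LPS in wild type (35% and 34.4% of all tested genes). Irak3, an inhibitor of receptor signalling, fell (-1.68 ± 0.13, adjusted p = 1.19e-06), as did Sigirr, an inhibitory receptor (-2.24 ± 0.18, 1.04e-06), and Irak2, a kinase-like signal transducer (-1.28 ± 0.09, 3.56e-07). Myd88, the adaptor shared with Toll-like receptors, rose by 0.83 ± 0.07 (adjusted p = 1.86e-06). Casp1, the protease that cuts the Il1b product, was named for that role after its values were seen and had 34.0 and 31.8 FPKM with LPS against 66.4 and 62.0 unstimulated (-0.94 ± 0.13, adjusted p = 6.48e-05). With anti-IgM 6 rose and 6 fell (27.7% and 20.9% of all tested genes). The decoy receptor Il1r2 rose by 1.34 ± 0.10 (adjusted p = 1.72e-06). Under LPS 3 of the 17 were lower in Trpm5-/- cells, where 3.59% of all tested genes were called in either direction: Irak3 at 3.46 and 3.53 FPKM against 5.33 and 6.98 (-0.66 ± 0.13, adjusted p = 0.0244), Il1r2 (-0.46 ± 0.10, 0.0313) and Casp4 (-0.34 ± 0.08, 0.0397). The calls of Il6st, Jak1, Irak3, Il1r2 and Casp4 between genotypes were each lost with at least 1 library left out.

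Transcription factors and cofactors known to act on these genes were read next. Of 34 tested, 20 rose and 9 fell with LPS in wild type, where 35% and 34.4% of all tested genes did, and 17 rose and 5 fell with anti-IgM, where 27.7% and 20.9% did. Nfkbiz, an NF-kappa-B cofactor needed for Il6 induction, rose from 14.5 and 14.4 FPKM to 315 and 337 with LPS (4.40 ± 0.08, adjusted p = 1.45e-10) and had 30.1 and 29.5 with anti-IgM. Its LPS levels in Trpm5-/- cells, 311 and 313 FPKM, were not called different. Nfkbia, the NF-kappa-B inhibitor, rose by 2.15 ± 0.05 with LPS. Irf4 rose by 2.52 ± 0.06 with LPS and 1.89 ± 0.06 with anti-IgM, and Rel by 1.30 ± 0.06 with anti-IgM. Ets1, which restrains B cell differentiation, fell with both, by log2 differences of -3.06 ± 0.07 and -1.94 ± 0.07. Egr2, an early target of antigen receptor signals, rose by 2.70 ± 0.11 with anti-IgM.

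Between genotypes under LPS 4 of the 34 were higher in Trpm5-/- and 3 lower, and 3.59% of all tested genes were called. Spib, a B cell factor of the Ets family, had 89.2 and 86.6 FPKM against 47.4 and 45.4 (0.91 ± 0.06, adjusted p = 7.10e-05). Ahr, the aryl hydrocarbon receptor, known to promote Il10 in B cells, had 27.6 and 30.7 against 12.6 and 13.7 (1.09 ± 0.12, adjusted p = 0.000846). Egr1 had 34.7 and 32.8 against 63.0 and 62.3 (-0.87 ± 0.07, adjusted p = 0.000326), and Ets1 21.1 and 22.4 against 31.5 and 32.8 (-0.54 ± 0.07, adjusted p = 0.00256). Spib, Ahr and Egr1 differed in the same direction without stimulus, by 1.41 ± 0.06, 1.20 ± 0.12 and -0.65 ± 0.07, and kept their calls under LPS with each library left out, as did Ets1 there. Without stimulus 5 of the 34 were higher and 4 lower (6.11% of all tested genes called), and with anti-IgM 4 were higher and 9 lower (3.83%).

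Genes of mRNA decay and stability were read last; some encode proteins that bind AU-rich elements and others, such as the Zc3h12 family and Arid5a, ones that bind stem-loops. Of 14 tested, 6 rose and 5 fell with LPS in wild type, beside 35% and 34.4% of all tested genes. Zfp36, whose product tristetraprolin binds ATTTA-rich elements, fell from 152 and 136 FPKM to 78.3 and 83.5 (-0.83 ± 0.07, adjusted p = 2.59e-06). Under LPS it was lower still in Trpm5-/- cells, at 53.1 and 59.9 FPKM (-0.51 ± 0.07, adjusted p = 0.00399). Unstimulated Trpm5-/- cells also had less Zfp36 than wild-type ones (-0.30 ± 0.07, adjusted p = 0.0399). Zfp36l2 fell with LPS (-1.75 ± 0.10), while its paralog Zfp36l1 rose by 0.91 ± 0.07 and Elavl1, a stabilizing factor, by 0.92 ± 0.07. Arid5a, known to stabilize Il6 mRNA, had 29.8 and 29.5 FPKM in Trpm5-/- against 22.1 and 21.2 in wild-type LPS libraries (0.44 ± 0.09, adjusted p = 0.0222). Zfp36l1 was lower there (-0.33 ± 0.07, adjusted p = 0.0303) and with anti-IgM (-0.57 ± 0.07, adjusted p = 0.00189). Zc3h12d was higher in Trpm5-/- without stimulus (1.14 ± 0.14, adjusted p = 0.00198) and with anti-IgM (0.91 ± 0.14, adjusted p = 0.00627). Between genotypes under LPS 1 of the 14 was higher and 2 lower (3.59% of all tested genes called). Without stimulus 1 was higher and 2 lower (6.11%), and with anti-IgM 2 were higher and 1 lower (3.83%). With anti-IgM 6 rose and 2 fell in wild type (27.7% and 20.9% of all tested genes), and Arid5a fell (-1.45 ± 0.09). The genotype call of Zfp36 under LPS held with each library left out. Those of Arid5a and Zfp36l1 under LPS, Zfp36 without stimulus and Zc3h12d with anti-IgM were each lost with at least 1 left out.

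**Figure D4:**
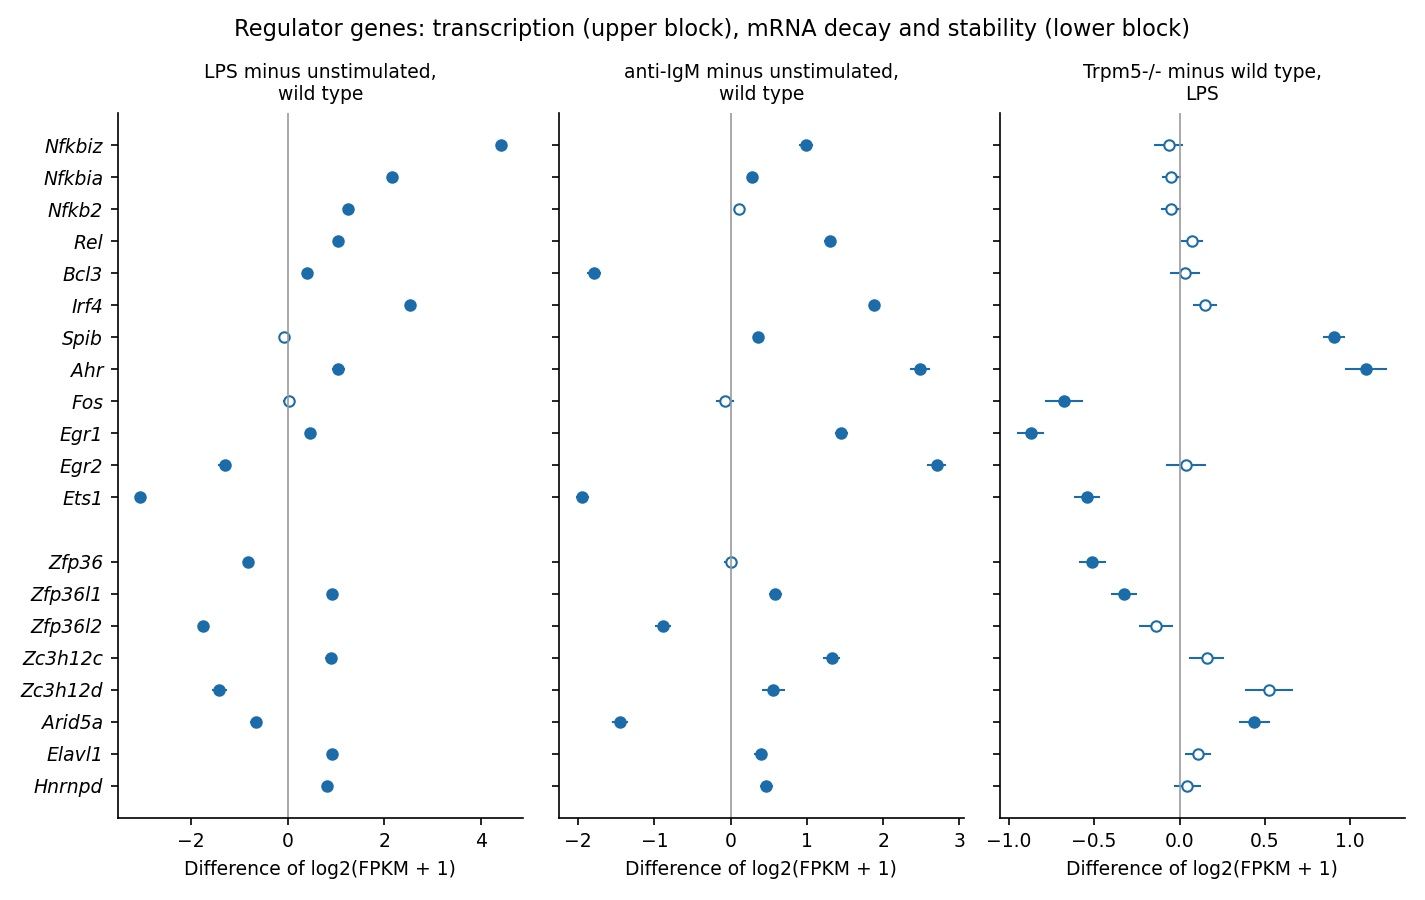
Differences of log2(FPKM + 1), with standard errors, of transcription regulators (upper block) and mRNA decay and stability genes (lower block) for LPS and anti-IgM in wild-type cells and for Trpm5-/- against wild type under LPS; the x axes differ between panels. Filled points are called at an adjusted p under 0.05. Nfkbiz stands out with LPS at 4.40, and Spib and Ahr are the highest between genotypes.

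Across the 12 libraries the 3 genes were correlated, as described by Pearson r of log2(FPKM + 1). It was 0.967 between Il6 and Il1b, 0.956 between Il6 and Il10 and 0.915 between Il10 and Il1b. Many other genes were as close. Il1b ranked 66th and Il10 102nd among the genes most like Il6. For Il10, Il6 ranked 17th and Il1b 126th, and for Il1b, Il6 ranked 40th and Il10 188th. The points share the 6 groups and their libraries, so no p is given. Among 10097 tested genes other than predicted models, those most like Il6 were Myo1g (0.996), Grm6 (0.993), Cxcr5 (0.992), Erp44 (0.990) and Ccl22 (0.990). Ccl22, a chemokine gene, had mean levels of 3.02 FPKM unstimulated, 54.5 with LPS and 1.86 with anti-IgM in wild type, and 86.6 with LPS in Trpm5-/-. Most opposite were Fcmr (-0.997), the Fc receptor for IgM, Fam134b (-0.995) and Ctsa (-0.995).

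For Il10 the genes named as most alike are Mybl2 (0.973), Mfng (0.971), Mcph1 (0.969) and Irg1 (0.968), and the most opposite Ctsl (-0.989), Zfp36 (-0.987) and Plcl2 (-0.985). Zfp36 had its lowest mean, 56.5 FPKM, in Trpm5-/- cells with LPS, the group where Il10, Il6 and Il1b were all highest. A link between Zfp36 and these genes was not tested. For Il1b the most alike were Pim2 (0.996), a kinase gene, Birc3 (0.994), Fam129c (0.993), Rras2 (0.991) and Nid1 (0.988). Pim2 had means of 80.2 FPKM unstimulated, 264 with LPS and 41.1 with anti-IgM in wild type, the same order of conditions as Il1b. The most opposite to Il1b were Snx5 (-0.996), Gnpda1 (-0.995) and Tpd52 (-0.995).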

How the data were processed

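RNA-seq of 12 mouse marginal zone B cell libraries was analysed from the deposited files, which hold 1 value per gene symbol. Tools in the submitters' processing notes are Cufflinks 2.2.1, TopHat2 2.0.13, SAMtools 0.1.19 and Bowtie2 2.2.3, with the mm10 build. The values deposited by the authors were taken as FPKM, since the files do not name the unit and Cufflinks gives it. The sources used here give neither the annotation nor mapped totals. Per the labels, full-length cDNA came from a SMART-Seq HT kit.

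Values were tested as log2(FPKM + 1) for 10797 genes that reached 1 FPKM in 2 libraries or more, with limma 3.58.1 in R 4.3.3 (group means over all 12 libraries, eBayes with trend, 6 residual degrees of freedom, 11 comparisons, 2-sided, Benjamini-Hochberg). The fit was tested on simulated data. No count test was run. Fragment numbers of the 3 genes were recovered as the whole numbers that fit all 12 values within 0.05. Replicate numbers were not taken as pairs, since deviations of same-numbered libraries correlated weakly, which does not show that pairing is absent.

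The genes, lists and rules were chosen with earlier results of these data known. Named list genes are at most 4 called members per list and comparison by smallest p, and the 5 most and 3 least correlated genes per member. One of these is not reported here. Alternatives were a pseudocount of 0.1, no filter, quantile and median-ratio scaling, a replicate block, the compared groups alone and leaving out each library.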

Additional observations from a re-analysis of the deposited data

How the results depend on the processing

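Of 352 alternative values of the 33 results on Il6, Il10 and Il1b, 329 kept direction and side of the threshold. The Il10 genotype difference under LPS (0.75) missed the threshold with the compared groups alone (0.75, adjusted p = 0.0841), without the filter (0.75, adjusted p = 0.0646) and with quantile normalization (0.66, adjusted p = 0.0517), and ranged from 0.51 to 0.997 with 1 library left out. Il6 passed it for anti-IgM in wild type with a pseudocount of 0.1 (-1.08, adjusted p = 0.0320) and between genotypes under LPS with the compared groups alone (0.70, adjusted p = 0.0117).

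Uncalled differences near 0 changed sign. The Il1b genotype difference without stimulus was 0.0014 with quantile normalization, and with 1 library left out ranged from -0.074 to 0.073. Other ranges with 1 library left out were -0.39 to 0.041 for Il1b and -0.0057 to 0.66 for Il6 between genotypes with anti-IgM, -0.12 to 0.16 for Il10 and -0.39 to 0.042 for Il1b in the anti-IgM interaction, and -0.11 to 0.075 for Il6 in the LPS interaction. Without a change of sign, the ranges were 0.29 to 0.78 for Il10 in the LPS interaction, -0.72 to -0.058 for Il6 in the anti-IgM interaction, -1.19 to -0.53 for Il6 with anti-IgM in Trpm5-/- cells, and 0.10 to 0.38 for Il10 between genotypes with anti-IgM.

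Deviations of same-numbered libraries had a median r of 0.037 over 15 pairs of groups (-0.17 to 0.20, 3 above 0.1), so the numbers were not taken as pairs. With a replicate block Il10 under LPS was 0.75 (adjusted p = 0.0231), and no call on the 3 genes changed. Counts of all genes called between genotypes changed by over 1.5 times: 388 under LPS became 171 with the compared groups alone and 158 to 208 with a library left out, 660 without stimulus became 163 and 160 to 273, and 413 with anti-IgM became 117 to 153 with a library left out. Of 33 genotype results on list genes, 15 lost their call under at least 1 alternative. Of the counts called in lists, regulators between genotypes ranged from 2 to 5 higher and 2 to 7 lower without stimulus, 2 to 4 and 2 to 3 with LPS and 1 to 4 and 3 to 9 with anti-IgM over the alternatives. With LPS in wild type, genes that rose ranged from 1 to 3 for interleukin-6 signalling, 5 to 8 for interleukins and 6 to 9 for mRNA decay. The 3 lower interleukin-1 genes between genotypes under LPS became 0 to 3. No scaling moved the median of all genes by over 0.1. Few fragments limit Il6 and Il1b with anti-IgM.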
